A study of Mus musculus with 6 samples.

Results

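The genes described here encode the proteasome, its activators, its inhibitor and its assembly chaperones, in naive CD4 T cells of mice that carried or lacked a T cell deletion of Cmtr1. They are the 50 protein-coding genes of the GENCODE vM21 annotation whose symbol begins with Psma to Psmg followed by a digit, of 46983 genes in the count files. Of these 50 genes, 48 passed the filter on low counts, among 12748 genes tested. One match of the pattern is no proteasome component: Psmc3ip encodes HOP2, a factor of meiotic recombination. It was kept in the counts over members, because the rule takes it, and its own values are given apart.

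The proteasome is the protease that degrades proteins tagged with ubiquitin. Its barrel-shaped core is built of stacked rings of alpha subunits (Psma genes), which gate the entry, and beta subunits (Psmb genes), some of which cut the substrate. A regulatory particle caps the barrel: a base with a ring of ATPases (Psmc genes) that unfolds substrates, and a lid (most Psmd genes) that carries the enzyme removing ubiquitin. Lymphocytes are known for a variant core, the immunoproteasome, in which Psmb8, Psmb9 and Psmb10 take the places of the catalytic subunits Psmb5, Psmb6 and Psmb7, and for the activator ring of Psme1 and Psme2; these 5 genes are induced by interferon and serve peptide supply to MHC class I.

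CMTR1 is the cap methyltransferase that modifies the ribose at the first transcribed position of capped RNAs. The study sequenced RNA of cells sorted from lymph nodes of male mice as TCRb+, CD4+, CD62L+, CD44- and DAPI-. The control group was Cmtr1 fl/fl CD4cre - (2 libraries) and the knockout group, labelled Cmtr1 cKO, was Cmtr1 fl/fl CD4cre + (4 libraries), so that all animals carried the floxed allele and only the knockout group carried the Cre transgene. Cre expressed from Cd4 regulatory sequence recombines in developing T cells, and the CD8 lineage, which passes through a CD4-expressing stage, is recombined as well. The age of the mice, and which exons are floxed, are not given in the sources used here, and no Cre-positive group without the floxed allele was analysed here. No label says that the libraries of a group came from separate mice, so that the p-values measure the spread between these libraries, which may be technical.

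The reads assigned to genes numbered 9513874 to 11949838 per library. Reads outside exons are here the uniquely mapped reads in no exon on the counted strand, so that reads opposite to an exon can be among them. Their share of uniquely mapped reads was 37.2% and 34.0% in the controls and 52.3%, 51.6%, 46.7% and 38.0% in Cmtr1 cKO 1, 2, 3 and 4. Cmtr1 cKO 4 thus lay next to the controls on this measure, and it had the lowest sample weight (0.374, against 1.12 to 1.35 in the other 5 libraries) in limma's quality weighting. Cmtr1 cKO 3 stood apart in strandedness, with 5.57 times as many reads on the counted strand as on the other, against 18.7 to 22.7 times in the other 5 libraries. It had 1707028 reads on the opposite strand of genes, against 490432 to 551462 in the others. Such reads can enter its share of reads outside exons. The normalised count of Cmtr1 itself (CPM, reads scaled to a common library total) was 11.2 and 11.4 in control cells and 16.0, 19.8, 14.6 and 7.57 in Cmtr1 cKO 1 to 4. A count over the whole gene does not check the labels where the deleted exons are unknown. The 10 naive CD4 T cell markers were all detected, with a summed level of 6212 to 6402 CPM in control cells and 5739 to 6779 CPM in the Cmtr1 cKO libraries, and 1 of them, Ccr7, was called lower. The summed markers of CD8 T cells (2 genes) were 23.6 to 28.7 CPM against 17.0 to 21.3 CPM, those of B cells (4 genes) 22.8 to 31.3 against 14.6 to 30.0 CPM, and those of regulatory T cells (2 genes) 60.7 to 91.8 against 67.4 to 93.3 CPM. Those of effector and activated T cells (4 genes) were 27.8 to 38.5 against 37.2 to 52.4 CPM. Nearly all of this was Il2ra, with 26.9 and 38.0 against 36.4, 36.8, 51.6 and 40.9 CPM, which was not called. Gzmb, Ifng and Tbx21 had at most 0.774 CPM in any library. The sums were 4.47 to 16.5 against 2.75 to 4.54 CPM for myeloid cells (4 genes), 2.14 to 2.54 against 0.846 to 1.67 CPM for NK cells (3 genes) with 1 called lower, 1.57 to 3.79 against 0.635 to 2.36 CPM for erythroid cells (3 genes), and 8.84 to 13.6 against 9.31 to 12.9 CPM for thymocytes (3 genes, Ptcra at 0 in every library). Thymic epithelial and testis markers summed to at most 0.0971 and 0.430 CPM. The part of these differences in any result below was not tested. In bulk RNA, fewer cells of a type and less RNA per cell cannot be told apart.

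Of the 48 tested members, 4 passed the test between the groups (quasi-likelihood test of edgeR, adjusted p under 0.05 by Benjamini and Hochberg's method over all genes tested). The core beta subunits Psmb1 and Psmb4 were lower in Cmtr1 cKO cells, and the ATPase subunit Psmc5 and the lid deubiquitinase Psmd14 were higher. These were 2 of 48 tested members in each direction (4.17%), where 4.66% of all genes tested were called higher and 6.77% were called lower. The members' share of calls was therefore close to, and in both directions below, that of genes at large. All of the 48 fitted log2 fold changes lay between -0.44 and 0.41, a range that holds 78.3% of all genes tested. Their median was -0.012, beside -0.00047 over all genes tested, with 22 members above 0 and 26 below. Without Psmc3ip, 47 members were tested, 21 were above 0 and 26 below, and the median was again -0.012. The interquartile range of the members ran from -0.14 to 0.11, against -0.19 to 0.22 for all genes, and their median standard error was 0.097, against 0.124. The plot of fold changes by role shows the members spread on both sides of 0.

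**Figure D1:**
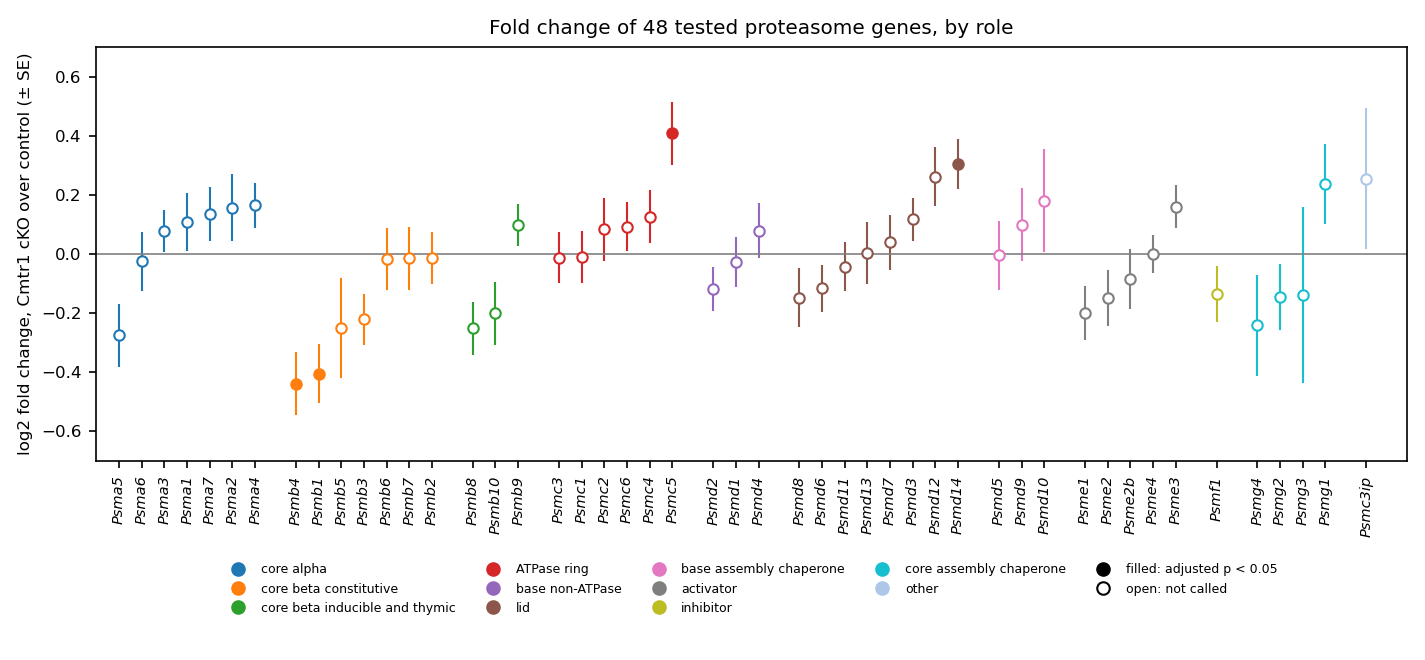
Log2 fold change (Cmtr1 cKO over control, edgeR fit of 4 against 2 libraries) of the 48 tested members on the vertical axis, grouped by role along the horizontal axis. Points are the fitted values, bars their standard errors, and filled points the 4 members with an adjusted p under 0.05; all points lie between -0.44 (Psmb4) and 0.41 (Psmc5), and all 7 constitutive beta subunits lie below 0 (4 of the 7 when scaled on protein-coding genes only).

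The stretches around the transcription start are shown for 3 of the 4 called members and for Psmb8, since the start base is the position that CMTR1 acts on. Each run holds the 120 bases before the start and 10 from it, taken from RefSeq on GRCm38.p6, read 5′ to 3′ on the gene's strand. The capital letter standing alone is the start base, and longer runs of capitals are matches on either strand to GGGCGG (the SP1 site) or to TTCNNNGAA (the STAT site), none of which overlap. The window of Psmb4 is chr3:94886949-94887078, minus strand, that of Psmc5 chr11:106256065-106256194, plus strand, that of Psmd14 chr2:61711574-61711703, plus strand, and that of Psmb8 chr17:34198075-34198204, plus strand. The Psmb8 stretch lies wholly inside the gene as GENCODE annotates it (chr17:34197721-34201454). The RefSeq start and the outer GENCODE start of Psmb8 thus differ, and which is used in these cells was not tested.
Psmb4: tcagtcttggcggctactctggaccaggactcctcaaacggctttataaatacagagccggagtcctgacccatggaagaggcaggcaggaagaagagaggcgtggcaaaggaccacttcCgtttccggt
Psmc5: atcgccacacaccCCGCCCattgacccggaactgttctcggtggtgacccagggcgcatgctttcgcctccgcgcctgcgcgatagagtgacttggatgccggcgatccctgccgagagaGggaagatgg
Psmd14: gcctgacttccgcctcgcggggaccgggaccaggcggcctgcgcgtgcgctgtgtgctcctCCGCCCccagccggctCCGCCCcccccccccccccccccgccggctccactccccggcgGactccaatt
Psmb8: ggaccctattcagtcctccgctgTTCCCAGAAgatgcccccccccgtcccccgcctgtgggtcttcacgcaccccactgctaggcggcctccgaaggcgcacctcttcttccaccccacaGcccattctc
The start base was C in Psmb4 and G in the other 3. Psmc5 holds 1 SP1 match in this stretch, on the opposite strand with its first base at -107 from the start, and Psmd14 holds 2, also on the opposite strand, at -59 and -43. Psmb8 holds a STAT match at -97 from its RefSeq start, inside the GENCODE gene. GGGCGG was found in 53.3% of the 45 member windows of 300 bases and in 63.2% of the 10712 windows of tested protein-coding genes. TTCNNNGAA was found in 6.67% and 6.95%. For both motifs the share of member windows was at or below that of tested protein-coding genes.

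The beta ring held both lower calls. Psmb1 (ENSMUSG00000014769.10, chr17:15475021-15499751, minus strand) encodes a beta subunit without catalytic activity. It had 128 and 136 CPM in control cells and 87.8, 92.2, 102 and 116 CPM in Cmtr1 cKO 1 to 4. All 4 Cmtr1 cKO libraries lay below both controls, with Cmtr1 cKO 4 nearest to them. The means were 132 ± 5.95 CPM (SD, n = 2) and 99.6 ± 12.5 CPM (SD, n = 4). The log2 fold change was -0.40 ± 0.10 (SE), or 0.755-fold, with an edgeR adjusted p of 0.0278.

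Psmb4 (ENSMUSG00000005779.12, chr3:94884093-94886961, minus strand), a beta subunit that likewise cuts no substrate and is among the last to join the ring, had 75.3 and 78.5 CPM in the controls. In Cmtr1 cKO 1 to 4 it had 49.2, 53.0, 58.0 and 66.6 CPM, the same order of libraries as for Psmb1 and again without overlap. The means were 76.9 ± 2.26 CPM (SD, n = 2) and 56.7 ± 7.53 CPM (SD, n = 4), a log2 fold change of -0.44 ± 0.11 (SE) or 0.738-fold, with an edgeR adjusted p of 0.0259. This was the largest decrease among the tested members. Psmb3, another structural beta subunit, was at 69.2 and 75.4 CPM in control cells and at 59.8, 56.9, 66.7 and 64.8 CPM in the Cmtr1 cKO libraries, all below the controls, and its log2 fold change of -0.22 ± 0.085 did not pass the test (edgeR adjusted p = 0.107). Its transcript shares 55.8% of its 50-base windows with transcripts of other genes, so that its count is uncertain. Psmb1 shares 2.81% and Psmb4 none.

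The catalytic subunits of the constitutive core were not called. Psmb5, the chymotrypsin-like subunit, had 13.8 and 14.9 CPM in control cells and 9.44, 11.5, 12.2 and 14.97 CPM in Cmtr1 cKO 1 to 4. Only Cmtr1 cKO 4 reached the controls, and the log2 fold change was -0.25 ± 0.17 (edgeR adjusted p = 0.338). Other genes' transcripts hold 57.1% of the windows of Psmb5. Since reads that map to several places count for no gene, its level is uncertain and can be too low. Psmb6, the caspase-like subunit, had 74.5 and 92.7 CPM against 75.4, 80.0, 81.1 and 93.4 CPM, and Psmb7, the trypsin-like subunit, had 58.2 and 69.8 CPM against 56.6, 61.1, 63.2 and 72.3 CPM. In both genes the SD of the 2 controls exceeded that of the 4 knockout libraries, and the log2 fold changes were -0.017 ± 0.10 and -0.015 ± 0.11 (edgeR adjusted p = 0.926 and 0.938). Psmb2, the remaining structural subunit, stood at -0.013. Across the 7 constitutive beta subunits the median log2 fold change was -0.22, and all 7 values were below 0. With scaling on protein-coding genes only, 3 of the 7 were above 0 and 4 below, so that the sign of the 3 values nearest 0 depends on the scaling.

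The inducible subunits of the immunoproteasome were not called either. Psmb8 (chr17:34197721-34201454, plus strand) replaces Psmb5 and was the member with the most reads. It had 282 and 287 CPM in control cells and 226, 218, 241 and 271 CPM in Cmtr1 cKO 1 to 4, all below the controls. The means were 285 ± 2.96 CPM (SD, n = 2) and 239 ± 23.8 CPM (SD, n = 4), and the log2 fold change of -0.25 ± 0.089 (SE), 0.840-fold, missed the threshold (edgeR adjusted p = 0.0855). With no filter on low counts it passed (edgeR adjusted p = 0.0389), as it did in limma with quality weights (adjusted p = 0.0116) and without Cmtr1 cKO 4 (edgeR adjusted p = 0.00145). With a covariate for reads outside exons the log2 fold change was -0.023 (edgeR adjusted p = 0.901).

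Psmb9 (chr17:34181987-34187764, minus strand), which replaces Psmb6, stood on the other side of 0 from Psmb8, with 111 and 101 CPM in control cells and 108, 114, 114 and 118 CPM in the Cmtr1 cKO libraries. The groups overlapped and the log2 fold change was 0.098 ± 0.071 (edgeR adjusted p = 0.370). The difference between Psmb8 and Psmb9 was not tested. On chromosome 17 the 2 genes lie 9956 bases apart, on opposite strands, with the peptide transporter genes Tap1 and Tap2 beside them: Psmb9 and Tap1 overlap at their ends on opposite strands, and 2072 bases separate Psmb8 from Tap2. Psmb10 (chr8:105935735-105938444, minus strand), which replaces Psmb7, had 99.0 and 103 CPM in control cells and 78.6, 79.2, 88.6 and 104 CPM in Cmtr1 cKO 1 to 4. Cmtr1 cKO 1 to 3 lay below the controls and Cmtr1 cKO 4 above them, and the log2 fold change was -0.20 ± 0.11 (edgeR adjusted p = 0.222). Psmb11, the beta subunit of thymic cortical epithelium, had no read in any library, which allows up to 0.258 to 0.317 CPM from a floor of 3 reads.

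The balance of the variant and the constitutive core was read from per-length levels within each library, as a description. Psmb8 exceeded Psmb5 by 3.497 and 3.41 on the log2 scale in the controls and by 3.72, 3.38, 3.45 and 3.32 in Cmtr1 cKO 1 to 4. The group means were 3.46 ± 0.059 and 3.47 ± 0.18 (SD), and their difference of 0.015 was smaller than either spread. The log2 ratio of Psmb9 to Psmb6 was -0.19 and -0.63 in the controls and -0.24, -0.25, -0.27 and -0.43 in the knockout libraries, which fell between the controls. The log2 ratio of Psmb10 to Psmb7 was 0.59 and 0.38 against 0.30, 0.20, 0.31 and 0.35, with all 4 knockout libraries below both controls and a difference of -0.19 between group means of 0.48 ± 0.15 and 0.29 ± 0.066 (SD). The ratio that involves Psmb5 carries the uncertainty of its shared windows and can be too high for that reason.

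**Figure D2:**
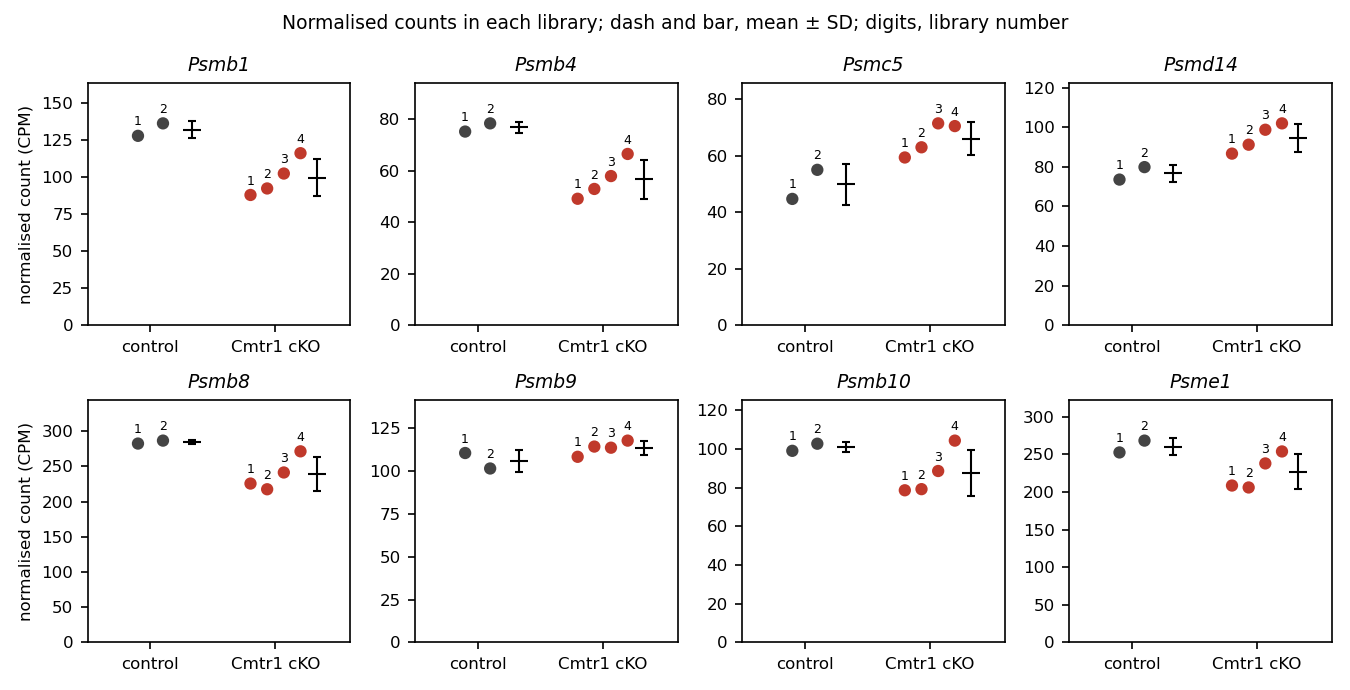
Normalised counts (CPM, vertical axes from 0) of the 4 called members (upper row) and of Psmb8, Psmb9, Psmb10 and Psme1 (lower row) in each library, with the library number above each point and the group mean ± SD beside the points. In Psmb1 and Psmb4 all 4 Cmtr1 cKO points lie below both controls and in Psmc5 and Psmd14 all lie above them, while Psmb9, Psmb10 and Psme1 overlap.

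The alpha ring had no called member. Of 7 tested alpha subunits, 5 had a log2 fold change above 0 and 2 below, with a median of 0.11, and only Psma4 had all 4 knockout libraries above both controls. Psma7, which had the highest per-length level of the ring, had 81.3 and 90.7 CPM in control cells and 89.6, 85.3, 98.3 and 104 CPM in Cmtr1 cKO 1 to 4 (log2 fold change 0.13 ± 0.092, edgeR adjusted p = 0.342). Psma5 had the largest change of the ring by size and was at 40.9 and 43.9 CPM in control cells and at 37.5, 29.7, 34.8 and 38.1 CPM in the knockout libraries. All 4 lay below the controls, and the log2 fold change of -0.27 ± 0.11 did not pass the test (edgeR adjusted p = 0.110), with 54.5% of its windows shared with other genes. The difference between the alpha and beta rings was not tested. On libraries 1 and 2 of each group alone, the alpha median was -0.015, with 3 above 0 and 4 below. Psma8, the alpha subunit of the testis, had no read in 4 libraries and 2 reads each in Cmtr1 cKO 3 and 4, below the 3-read floor, and was not tested.

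Among the 6 ATPases that unfold substrates, Psmc5 (ENSMUSG00000020708.12, chr11:106256154-106263120, plus strand) rose. It had 44.7 and 55.0 CPM in control cells and 59.3, 62.9, 71.4 and 70.4 CPM in Cmtr1 cKO 1 to 4. All 4 knockout libraries exceeded both controls, and control 1 was the lowest library. The means were 49.8 ± 7.28 CPM (SD, n = 2) and 66.0 ± 5.85 CPM (SD, n = 4), a log2 fold change of 0.41 ± 0.11 (SE) or 1.33-fold, with an edgeR adjusted p of 0.0333. No 50-base window of its transcript is found in another gene. The other 5 ATPases lay between -0.012 and 0.13 on the log2 scale. Psmc3, the ATPase with the highest per-length level, had 101 and 111 CPM in control cells and 103, 96.0, 105 and 118 CPM in the knockout libraries, with full overlap (log2 fold change -0.012 ± 0.087, edgeR adjusted p = 0.937). Of the 6 values, 4 were above 0 and 2 below, and with scaling on protein-coding genes only all 6 were above 0.

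The lid held the remaining call. Psmd14 (ENSMUSG00000026914.15, chr2:61711694-61800376, plus strand) encodes the metalloprotease that removes ubiquitin chains from substrates as they enter. It had 73.5 and 79.8 CPM in control cells and 86.6, 91.2, 98.7 and 102 CPM in Cmtr1 cKO 1 to 4, without overlap. The means were 76.7 ± 4.45 CPM (SD, n = 2) and 94.6 ± 6.97 CPM (SD, n = 4), and the log2 fold change was 0.30 ± 0.085 (SE), 1.23-fold, with an edgeR adjusted p of 0.0408. Psmd12, a scaffold subunit of the lid, was also above both controls in every knockout library, with 56.5 and 55.0 CPM against 61.4, 61.2, 67.7 and 76.9 CPM, but its log2 fold change of 0.26 ± 0.10 did not pass (edgeR adjusted p = 0.106). Psmd8, the lid subunit with the highest per-length level, had 108 and 107 CPM in control cells and 91.7, 85.3, 99.1 and 113 CPM in the knockout libraries, where only Cmtr1 cKO 4 was above the controls (log2 fold change -0.15 ± 0.10, edgeR adjusted p = 0.337). The 8 lid members had a median of 0.021, with 5 above 0 and 3 below.

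The base subunits outside the ATPase ring were not called. Psmd4, a ubiquitin receptor, had 107 and 111 CPM in control cells and 104, 105, 120.2 and 129 CPM in Cmtr1 cKO 1 to 4 (log2 fold change 0.079 ± 0.092, edgeR adjusted p = 0.594). Psmd2, the scaffold that binds ubiquitin shuttles, had 144 and 154 CPM against 131, 132, 137 and 149 CPM (log2 fold change -0.12 ± 0.074, edgeR adjusted p = 0.303). Psmd4 overlapped fully, and of Psmd2 only Cmtr1 cKO 4 exceeded a control. The 3 chaperones of base assembly, Psmd5, Psmd9 and Psmd10, had a median of 0.0996. Psmd10, which encodes gankyrin, had 19.1 and 14.96 CPM in control cells and 16.3, 16.1, 22.1 and 22.9 CPM in the knockout libraries (log2 fold change 0.18 ± 0.17, edgeR adjusted p = 0.507).

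The activators cap the core in place of the regulatory particle and were not called. Psme1 (chr14:55578123-55581529, plus strand), 1 of the subunits of the interferon-induced activator ring, had 252 and 268 CPM in control cells and 208, 206, 238 and 254 CPM in Cmtr1 cKO 1 to 4. Only Cmtr1 cKO 4 passed the lower control, and the means were 260.3 ± 11.1 CPM (SD, n = 2) and 226 ± 23.2 CPM (SD, n = 4), with a log2 fold change of -0.20 ± 0.092 (edgeR adjusted p = 0.163). Its partner Psme2 (chr14:55587441-55591113, minus strand), 5911 bases away on the opposite strand, had 156 and 168 CPM against 137, 130.2, 152 and 166 CPM, the same pattern over libraries (log2 fold change -0.15 ± 0.095, edgeR adjusted p = 0.305). Psme2 and its near copy Psme2b share most of their sequence, 59.3% and 69.3% of their windows being found in other genes. Reads that map to several places count for no gene, so that both levels are uncertain and can be too low. Psme3, the nuclear activator, had all 4 knockout libraries above the controls (log2 fold change 0.16, edgeR adjusted p = 0.164), and Psme4, the activator of histone degradation, had means of 139.7 ± 4.73 CPM and 139.8 ± 3.04 CPM (SD).

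Psmf1, named as an inhibitor of the core, had 47.4 and 47.9 CPM in control cells and 44.0, 38.8, 42.0 and 48.6 CPM in Cmtr1 cKO 1 to 4, and again only Cmtr1 cKO 4 exceeded the controls (log2 fold change -0.13 ± 0.096, edgeR adjusted p = 0.361). Of the 4 chaperones of core assembly, 1 was above 0 and 3 below. Psmg1, a chaperone of alpha ring formation, had 17.0 and 17.4 CPM against 17.9, 18.8, 24.2 and 20.5 CPM, all knockout libraries being above the controls (log2 fold change 0.24 ± 0.14, edgeR adjusted p = 0.256). Psmg4 had 11.1 and 11.7 CPM against 9.63, 8.71, 8.15 and 11.9 CPM (log2 fold change -0.24 ± 0.17, edgeR adjusted p = 0.358). Psmg3 had the lowest count of any tested member in a single library, 26 reads in Cmtr1 cKO 3, and its log2 fold change of -0.14 ± 0.30 was smaller than its standard error. Psmc3ip had 2.89 and 2.82 CPM against 3.98, 3.08, 3.39 and 3.18 CPM (log2 fold change 0.26 ± 0.24, edgeR adjusted p = 0.496).

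Members whose groups did not overlap were no more frequent than among all genes. In 7 of the 48 (14.6%), Psma4, Psmc5, Psmd12, Psmd14, Psme3, Psmg1 and Psmc3ip, all 4 knockout libraries lay above both controls, against 18.2% of all genes tested. In 6 (12.5%), Psma5, Psmb1, Psmb3, Psmb4, Psmb8 and Psmg2, all 4 lay below, against 20.8%. An unadjusted p under 0.05 was reached by 8 members (16.7%), against 30.9% of all genes tested.

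Per library, the median over members of the log2 ratio to the control mean (after adding 0.5 CPM) was -0.028 and 0.028 in the controls and -0.065, -0.084, 0.026 and 0.14 in Cmtr1 cKO 1 to 4. The same median over all genes tested stayed within 0.013 of 0 in every library. Cmtr1 cKO 4 was the highest of the 4 knockout libraries in 39 of the 48 members (81.2%), against 34.1% of all genes tested. This held for all 7 alpha subunits, 6 of 7 constitutive beta subunits, the 3 inducible subunits, 5 of 6 ATPases, all 3 other base subunits, 7 of 8 lid subunits and Psmf1. It held for 3 of 5 activators, 2 of 3 chaperones of base assembly and 2 of 4 of core assembly, and not for Psmc3ip. The summed level of the tested members was 3668 and 3804 CPM in control cells and 3423, 3421, 3729 and 4039 CPM in Cmtr1 cKO 1 to 4, so that the highest and the lowest libraries were both knockout libraries. Of the knockout libraries, the 2 with the lowest sums had the largest shares of reads outside exons (52.3% and 51.6%) and the 1 with the highest sum had the smallest (38.0%). The part of the share in the members' levels was not tested.

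**Figure D3:**
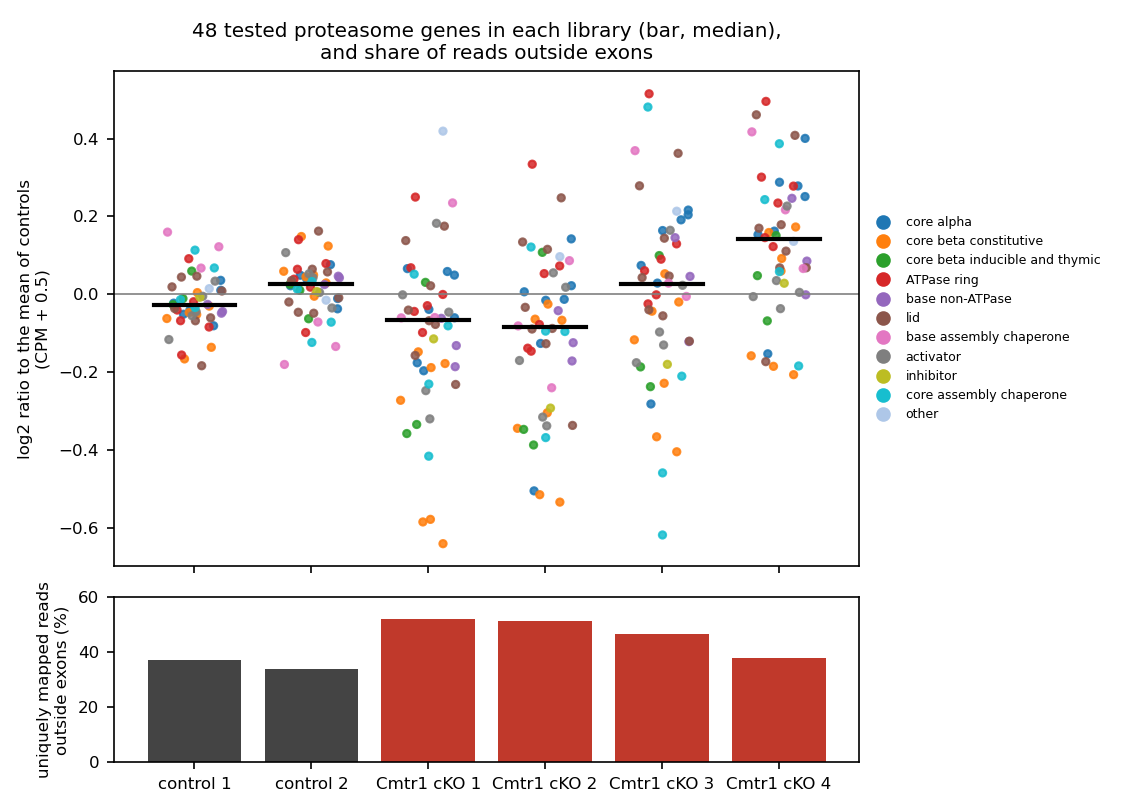
Upper panel: log2 ratio of each tested member's normalised count to the mean of the controls (0.5 CPM added) in each library, coloured by role, with a bar at the median of the 48 members, which runs from -0.084 in Cmtr1 cKO 2 to 0.14 in Cmtr1 cKO 4. Lower panel: uniquely mapped reads outside exons on the counted strand (%, axis from 0) in the same libraries, 34.0% and 37.2% in the controls, 46.7% to 52.3% in Cmtr1 cKO 1 to 3 and 38.0% in Cmtr1 cKO 4.

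Within the larger core and base roles, medians were lower in Cmtr1 cKO 1 and 2 than in Cmtr1 cKO 3 and 4. The median log2 ratio to the control mean was -0.039, -0.013, 0.16 and 0.25 over the alpha subunits in Cmtr1 cKO 1 to 4, and -0.27, -0.30, -0.12 and 0.060 over the constitutive beta subunits. Over the inducible beta subunits it was -0.33, -0.35, -0.19 and 0.048, and over the ATPases -0.015, -0.012, 0.076 and 0.26. The chaperones of core assembly had another order, with -0.16, -0.095, -0.33 and 0.15, and Psmc3ip was highest in Cmtr1 cKO 1. In all 4 libraries the alpha and ATPase medians were thus above the medians of both kinds of beta subunit, though these differences between roles were not tested.

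The calls depended on which libraries entered the test. Without Cmtr1 cKO 4, 2 members were called higher, Psmc5 and Psmd14, and 9 lower, where 15.4% of all genes tested were called in the higher and 15.4% in the lower direction. The lower members were Psmb1 and Psmb4 (log2 fold changes of -0.49 and -0.53), with Psma5 (-0.32), Psmb3 (-0.24), Psmb8 (-0.32), Psmb10 (-0.30), Psmd8 (-0.23), Psme1 (-0.26) and Psme2 (-0.22). Without control 1, no member was called, against 0.529% of all genes higher and 1.43% lower, and without control 2 none was called, against 0.299% and 1.18%. Without Cmtr1 cKO 1, 2 members were called higher and none lower (background 2.15% and 3.73%), without Cmtr1 cKO 2 none (1.81% and 3.44%) and without Cmtr1 cKO 3 none (1.75% and 3.03%).

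For Psmb1 the edgeR adjusted p was 0.135 and 0.244 without control 1 and 2, 0.0572, 0.0654 and 0.0756 without Cmtr1 cKO 1, 2 and 3, and 0.000118 without Cmtr1 cKO 4. For Psmb4 it was 0.142, 0.217, 0.0508, 0.0609, 0.0708 and 0.000144 in the same order. Psmc5 had 0.254 without control 1, where the log2 fold change was 0.27, and 0.0705 without control 2, where it was 0.58, then 0.0295, 0.0507, 0.0854 and 0.0104 without the knockout libraries in turn. Psmd14 had 0.240, 0.158, 0.0379, 0.0662, 0.0973 and 0.0129. The directions of the 4 members were the same in each of these 6 tests. With 2 controls, leaving out either sets the control level from a lone library, whose spread is assumed to be that of the knockout group.

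When the share of reads lying outside exons entered the fit as a covariate, 10 members were called higher and none lower, against 2.51% and 2.71% of all genes tested, and the median log2 fold change over members was 0.17. The higher members were Psma1 (0.37), Psma2 (0.48), Psma4 (0.28), Psma7 (0.36), Psmc2 (0.35), Psmc4 (0.34), Psmc5 (0.61), Psmd4 (0.32), Psmd12 (0.51) and Psmd14 (0.48), that is alpha subunits, ATPases, lid subunits and a ubiquitin receptor of the base. Psmb1 and Psmb4 were then at -0.11 and -0.13 (edgeR adjusted p = 0.485 and 0.466), and the constitutive beta subunits had a median of 0.15, with 4 above 0 and 3 below. All 4 knockout libraries had a larger share than both controls, Cmtr1 cKO 4 by the least (38.0% against 37.2% in control 1), so that genotype and share cannot be told apart. Psmc5 and Psmd14 were called with and without the covariate.

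Per length of transcript, the activator genes Psme1 and Psme2 and the immunoproteasome gene Psmb8 led the members. The normalised counts per kilobase of the principal transcript (RPKM), averaged over the 6 libraries, were highest for Psme1 at 214, with 234 ± 9.996 in the controls and 204 ± 20.9 in the knockout (SD). Psme2 followed with 158 and Psmb8 with 156, which did not differ beyond their spread (169 ± 8.92 and 175 ± 1.82 RPKM in the controls). The next were the constitutive beta subunit Psmb6 with 104 and Psma7 with 100.2 RPKM, again within each other's spread. Among the members with low levels were Psmb5 with 14.2, Psmf1 with 11.8, Psmg3 with 4.75 and Psmc3ip with 2.496 RPKM. Windows are in part shared with other genes in Psme1 (14.1%), Psme2 (59.3%), Psmb5 (57.1%) and Psmg3 (22.7%), so that these levels can be too low.

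Subunits that occur in equal number in the particle did not have equal levels per length of principal transcript. Within the ATPase ring the highest per-length level was 1.80 times the lowest, and within the lid 2.87 times. Within the alpha ring it was 3.31 times (Psma7 over Psma5) and among the constitutive beta subunits 7.30 times (Psmb6 over Psmb5). The windows of Psma5 and Psmb5 are in part shared with other genes (54.5% and 57.1%), which leaves both ratios uncertain and can make them too high. Psmd11, the lid subunit with the lowest level, shares 14.0% of its windows, so that the lid ratio carries some of this uncertainty. The role medians were 62.9 RPKM for alpha and 62.8 for constitutive beta subunits, 82.1 for the inducible ones, 44.9 for the ATPases, 34.2 for the lid, and 10.4 and 17.8 for the chaperones of base and core assembly. Levels per length depend on the length used: with all annotated exon bases, Psme1, Psme2 and Psmb8 were still the first 3 at 108, 85.9 and 75.2 RPKM, but Psma7 was at 29.8 and Psmb6 at 44.3. Among the tested alpha subunits Psma6 then led at 53.1 and Psma3 was lowest at 24.9, with Psma5 at 28.4.

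**Figure D4:**
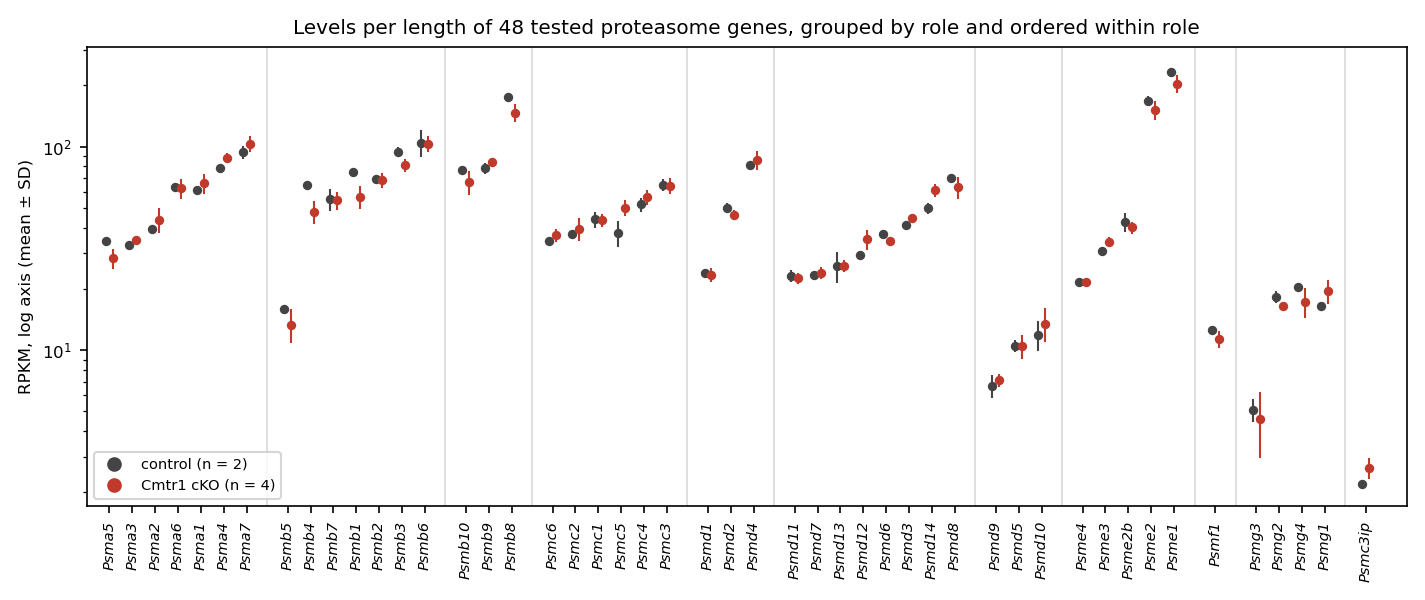
Normalised counts per kilobase of principal transcript (RPKM, log axis) of the 48 tested members, grouped by role and ordered by level within a role, with points at the group mean and bars of ± SD for the controls (n = 2, grey) and Cmtr1 cKO (n = 4, red). Psme1, Psme2 and Psmb8 lie highest, the assembly chaperones, Psmf1 and Psmb5 low, and the group means of most members lie close together.

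Genes that act with the proteasome were read from a list. Of 35 tested genes of the ubiquitin-proteasome list (shuttles, deubiquitinases, ubiquitin precursors, further assembly factors and regulators of proteasome gene transcription), none was higher and 2 were lower, with a median log2 fold change of -0.10, and 8 reached an unadjusted p under 0.05. The shares of all genes tested were 4.66% called higher, 6.77% called lower and 30.9% with such a p. Rps27a, which encodes ubiquitin fused to a ribosomal protein, had 609.5 and 642 CPM in control cells and 272, 301, 355 and 393 CPM in Cmtr1 cKO 1 to 4. All 4 were far below the controls, and it fell by 0.92 ± 0.12 on the log2 scale (edgeR adjusted p = 0.00141). Vcp, the ATPase that extracts ubiquitinated proteins from complexes and membranes, had 210.5 and 227 CPM against 172, 168, 179 and 192 CPM and fell by 0.30 ± 0.075 (edgeR adjusted p = 0.0283). Nfe2l1, the transcription factor that raises proteasome genes when the proteasome is inhibited, was not called, with 79.8 and 82.5 CPM against 68.3, 65.2, 75.1 and 74.1 CPM (log2 fold change -0.20 ± 0.079, edgeR adjusted p = 0.117). Pomp, the maturation factor of the core, was at -0.12 (edgeR adjusted p = 0.396).

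The interferon axis list holds signalling and transcription factor genes together with antigen presentation genes (Tap1, Tap2, Tapbp, B2m and Erap1). Of its 15 tested genes, none was higher and 3 were lower, with a median of -0.099, and 4 reached an unadjusted p under 0.05. Of all genes tested, 6.77% were called lower and 30.9% had such a p. Irf1, a transcription factor of interferon responses, had 291 and 278 CPM in control cells and 224, 219, 235 and 235 CPM in Cmtr1 cKO 1 to 4, and fell by 0.32 ± 0.068 (edgeR adjusted p = 0.0158). Tapbp, which encodes the peptide-loading factor tapasin, had 408 and 395 CPM against 277, 276, 287 and 303 CPM and fell by 0.49 ± 0.071 (edgeR adjusted p = 0.00188). Ifngr1, the receptor chain that binds interferon gamma, had 109 and 92.3 CPM against 75.2, 65.2, 78.3 and 68.3 CPM and fell by 0.49 ± 0.093 (edgeR adjusted p = 0.00925). In these 3 genes all 4 knockout libraries, Cmtr1 cKO 4 included, lay below both controls. Nlrc5, Tap1 and Tap2 were at 0.093, -0.16 and -0.099 and were not called. B2m, at -0.46 ± 0.14, just missed the threshold (edgeR adjusted p = 0.0508). It had 2488 and 2104 CPM in control cells and 1471, 1535, 1769 and 1916 CPM in Cmtr1 cKO 1 to 4.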

How the data were processed

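RNA was extracted with Trizol from 6 sorted samples and sequenced after ribosomal RNA depletion. The deposited files hold counts of reads per gene for 3 strand settings, made with STAR 2.5.2b on mm10/GRCm38, per the submitters' processing notes, which also name edgeR; for the annotation behind the counts, the sources used here name none. The authors' counts were used unchanged, from the strand column that held 5 or more times as many reads as its opposite. Rows that name no gene (52.1% to 62.0% of the reads of a library) were left out. Of 46983 identifiers, 98.9% matched GENCODE vM21.

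The groups were compared with edgeR 4.0.16 (default low-count filter, TMM scaling, robust quasi-likelihood test) in R 4.3.3, with Benjamini-Hochberg adjustment over 12748 genes and a threshold of 0.05. The pipeline was tested on data simulated with a common dispersion (0.00919) for all genes and no deviating library. That simulation does not cover the differences between libraries seen here. CPM are TMM-scaled, and RPKM divide CPM by the length of the APPRIS principal transcript. Shared sequence is the percentage of 50-base windows of that transcript found in transcripts of other genes. Promoters came from RefSeq (GRCm38.p6; 42 members matched). The numbers of reads per library limit the smallest change that can be seen, and counting error is least for the highly expressed members.

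The members and lists were chosen with earlier results of these data known. Per-library values are given for the called members, for Psmb5 to Psmb10, Psme1 and Psme2, and for the member of each role with the highest level or the largest change. Psmb3 and Psmd12 are given per library beyond that rule, chosen after their values were seen. The 15 alternatives covered scaling, DESeq2 1.42.0, limma 3.58.1 with quality weights, the filter, strand, protein-coding genes only, a covariate for reads outside exons, a replicate block and leaving out each library. Replicates differed by more than sampling noise, Cmtr1 cKO 1 and 2 least (chi-square per degree of freedom 1.87) and pairs with Cmtr1 cKO 3 most (42.2 to 49.4).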

Additional observations from a re-analysis of the deposited data

How the results depend on the processing

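Of 15 alternatives, RLE factors and DESeq2 changed neither the 2 higher nor the 2 lower members, and no filter gave 2 and 3. Over all genes, RLE factors called 608 higher and 832 lower of 12748 tested, and DESeq2 669 and 731 of 12373. With no filter it was 1167 and 1105 of 24952. Unstranded counts gave 2 lower and 1 higher, Psmc5 (edgeR adjusted p = 0.0414), while Psmd14 was not called (edgeR adjusted p = 0.0664). Of 14282 genes tested on these counts, 544 were called higher and 725 lower. With the covariate for reads outside exons 10 were higher, 0 lower, and the median was 0.17. Quality weights gave 2 higher and 7 lower, where 1469 and 1701 of 12748 genes tested were called higher and lower. Labels share replicate numbers 1 and 2 across groups, and deviations of same-numbered libraries from their group means correlated at 0.13 and -0.13. With 2 controls these deviations mirror each other, so that the correlations cannot settle whether same-numbered libraries were paired. With a replicate block on these libraries 11 were lower (Psmc5 and Psmd14 higher). Of 12535 genes tested, 2399 were then called lower and 2431 higher. The same libraries without the block, an alternative chosen after seeing the data, also gave 11, where 2339 of 12535 genes were called lower. Leaving out a replicate, the higher members ranged from 0 to 2, the lower from 0 to 9 and the median from -0.064 to 0.035. Psmb1 and Psmb4 each stayed called in 9 of 15 alternatives, Psmc5 in 11 and Psmd14 in 10, with no change of direction. Among the 23 members named by the rule, signs turned with the covariate in Psmb5 (0.16), Psmb6 (0.24), Psmb7 (0.26), Psmb10 (0.12), Psmc3 (0.19), Psmd2 (0.035), Psmd8 (0.12), Psme1 (0.041), Psme2 (0.11), Psmf1 (0.041) and Psmg4 (0.053). They turned with protein-coding genes only in Psmb6 (0.013), Psmb7 (0.016) and Psmc3 (0.018), and on libraries 1 and 2 with and without the block in Psmd4 (-0.048 and -0.048) and Psmd10 (-0.065 and -0.074). Leaving out a replicate turned Psmb6 (range -0.16 to 0.16), Psmb7 (-0.13 to 0.13) and Psmc3 (-0.070 to 0.068). The causes were not tested. Depth limits Psmg3, Psmc3ip, Psma8 and Psmb11 most.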

Other observations

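RefSeq promoter windows (250 bases before the start to 50 after it, GRCm38.p6) were found for 42 members, in 45 windows. As a description, searched on both strands, CCGGAAG (the ETS site) was in 16 of the 45 (35.6%), against 19.5% of the windows of tested protein-coding genes and 8.86% of all windows. A pair of GAAA words separated by any 2 bases (the interferon response element) was in 5 (11.1%), against 3.27%, namely in Psmb3, Psmd4, Psmd9, Psme1 and Psmg4, and not in the windows of Psmb8, Psmb9 and Psmb10. The RefSeq starts of Psmb8 and Psmb9 lie inside the GENCODE genes, so that sequence before the outer GENCODE starts was not searched. TGACNNNGC, the antioxidant response element bound by NFE2L1 and NFE2L2, was in 6 (13.3%), against 14.4%, and CCAAT (NF-Y) in 15 (33.3%), against 38.2%. The start base was G in 22 windows (48.9%), A in 11 (24.4%), C in 9 (20.0%) and T in 3 (6.67%), against 47.5%, 28.0%, 14.7% and 9.87% in the windows of tested protein-coding genes. A match is a run of letters, not a bound site.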
